A study of Mus musculus with 20 samples.

Results

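Histone marks were described here at 10 mouse genes of apolipoproteins and of very-low-density lipoprotein (VLDL) assembly: Apob, Mttp, Apoa1, Apoa2, Apoa4, Apoa5, Apoc2, Apoc3, Apoe and Apom. The genes were chosen by name, as 10 of 21900 protein-coding genes with a position. Their regions were the consensus intervals of 3 histone marks whose midpoint lay in the gene body or within 10 kb of it, which gave 40 of 65776 intervals for H3K27ac, 78 of 103014 for H3K4me1 and 78 of 46568 for H3K9ac. The value of a library at an interval was the highest fold enrichment over input among its peaks there, as the authors deposited it, and a library without a peak had no call. Because the genes lie in clusters, 2 H3K27ac and 5 H3K4me1 intervals counted for more than 1 member.

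Livers came from 9-week-old male C57BL/6 mice fasted for 24 h, and chromatin immunoprecipitation with sequencing was run with antibodies to each mark. The 4 genotypes were wild type (WT), Cpt2 L-/- (a deletion of Cpt2 in the liver, here Cpt2 KO), Ppara -/- (a whole-body deletion, here Ppara KO) and Cpt2 L-/- ; Ppara -/- (the double knockout, DKO). H3K27ac and H3K4me1 were each measured in 2 libraries per genotype, and H3K9ac in 1 WT and 1 Cpt2 KO library, with all mice fasted and no fed group. The driver of the liver deletion is not given in the sources used here, and the labels number the replicates without saying that they were separate animals, so p-values measure the spread between these libraries, which may be technical.

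VLDL is the particle in which the liver exports triglyceride. It forms around 1 molecule of apolipoprotein B (Apob), which is loaded with lipid in the endoplasmic reticulum by the microsomal triglyceride transfer protein (Mttp), and it carries smaller exchangeable apolipoproteins that steer its lipolysis and uptake. Ppara is a nuclear receptor for fatty acids that is active in the fasted liver, and Cpt2 is a mitochondrial enzyme needed to burn long-chain fatty acids, while H3K27ac and H3K9ac mark active promoters and enhancers and H3K4me1 marks enhancers.

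Peak lists held 44454 to 48929 peaks per H3K27ac library and 61189 to 72151 per H3K4me1 library, and depth in reads is unknown. H3K27ac peaks covered 42.0 to 44.9 Mb in the 4 libraries without Cpt2 and 44.8 to 47.8 Mb in the 4 with it. The smallest peak of a H3K27ac list was 217 to 223 bases long without Cpt2 and 198 to 210 bases with it, so this property of the peak lists moved with the Cpt2 state, and its part in the results was not tested beyond the covariate named below. Of 7 hepatocyte markers, 6 had a H3K27ac interval and all 6 were called in all 8 libraries (Tf had no interval). Their summed fold at the strongest interval of each was 99 to 102 for WT, 98 to 112 for Cpt2 KO, 92.1 to 117 for Ppara KO and 122 to 136 for DKO. Summed folds of 7 of 8 Kupffer cell or macrophage markers (Marco had no interval) were 20.7 to 21.4 for WT, 49.8 to 51.7 for Cpt2 KO, 24.8 to 30.2 for Ppara KO and 72.9 to 82.5 for DKO. Those of 6 endothelial markers were 75.5 to 83.1, 114 to 129, 84.7 to 94.9 and 124 to 133 in the same order. Sums of Kupffer cell and endothelial markers thus also moved with the Cpt2 state, and their part in the results below was not tested. These folds are not centred. Without centring, the median log2 difference over all H3K27ac intervals, libraries without Cpt2 against those with it, was 0.25. Bile duct sums, given below, were lower in Cpt2 KO, Ppara KO and DKO than in WT. All 6 endothelial markers but only 3 of the 7 macrophage markers were called in all 8 libraries. An uncalled marker added 0 to its sum, so the macrophage sums mix calls with folds. In whole liver, a mark that is lower per cell and a smaller share of cells that carry it cannot be told apart.

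Only the start of Apoa2, the second most abundant protein of high-density lipoprotein, lay in an interval that passed a test for Cpt2, and its promoters are printed for that reason. RefSeq (GRCm38.p6) lists a pair of starts for this gene, and the sequences run 250 bases before to 50 bases after each, on the plus strand, with motif matches in capitals. The table held promoters for 9 of the 10 members (13 starts) and none for Apoc3.

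Apoa2, start at 171221564, chr1:171221314-171221613: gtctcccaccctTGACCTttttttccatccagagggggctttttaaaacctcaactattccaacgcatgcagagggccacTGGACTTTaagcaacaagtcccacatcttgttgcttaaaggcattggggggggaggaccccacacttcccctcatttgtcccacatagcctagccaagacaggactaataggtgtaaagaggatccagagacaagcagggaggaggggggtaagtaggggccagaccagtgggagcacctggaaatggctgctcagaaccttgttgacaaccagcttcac
Apoa2, start at 171225054, chr1:171224804-171225103: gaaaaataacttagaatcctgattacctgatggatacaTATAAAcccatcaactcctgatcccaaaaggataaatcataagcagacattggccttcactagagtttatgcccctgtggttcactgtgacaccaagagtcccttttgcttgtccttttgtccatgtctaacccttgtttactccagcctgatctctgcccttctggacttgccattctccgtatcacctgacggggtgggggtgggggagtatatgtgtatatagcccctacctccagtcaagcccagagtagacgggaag

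Capitals in the former mark the nuclear receptor recognition site AGGTCA and the variant AAAGTCCA, a core of sites bound by Hnf4a, both read on the opposite strand. In the latter they mark TATAAA. A search of both strands found AGGTCA in 14.7% of 21263 protein-coding promoters of this length, AAAGTCCA in 1.19%, AAAGTTCA in 1.04%, TATAAA in 12.6%, CACGTG in 7.84%, TGACGT in 8.49%, and the direct repeat of AGGTCA with 1 base between (which contains AGGTCA) in 0.047%. No member promoter of the table held that direct repeat. Apoa4 held AAAGTTCA, both Apoa5 promoters held TATAAA and CACGTG, Apob and 1 of the 3 Apoe promoters held TATAAA, Apoc2 held AGGTCA at 2 places, and Mttp held TGACGT. These are matches of letters in a window and not bound sites.

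H3K27ac lay over the listed starts of most members, and with the settings described next, no interval over the start of Apob, Apoc2, Apoe, Apoa1, Apoa4 or Apoa5 passed in limma. Of the 40 member intervals, 17 (42.5%) were called in all 8 libraries, beside 27.8% of all intervals, and their median fold was 18.1, beside 11.4 over all 18281 such intervals. For H3K4me1, 26 of 78 member intervals (33.3%) were called in all 8 libraries, beside 19.0% of all, with a median fold of 7.16 beside 7.42. A peak of H3K27ac lay over the listed start of Apob, Apoc2, Apoe, Apoa1, Apoa4, Apoa5 and the second Apoa2 start in all 8 libraries, over the first Apoa2 start in 7, over that of Apom in 4 and over that of Mttp in none.

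Folds on a log2 scale were compared between libraries with limma, after each library was centred on its median over the intervals tested, with adjusted p under 0.05 (Benjamini-Hochberg over all intervals of the mark) as the threshold. Ppara loss sets the mean of Ppara KO and DKO against that of WT and Cpt2 KO, and Cpt2 loss sets Cpt2 KO and DKO against WT and Ppara KO. For H3K27ac, 1 of 17 member intervals passed for Ppara loss (lower), beside 7.34% of 18281 intervals, and 3 passed for Cpt2 loss (2 higher and 1 lower), beside 12.3%. Against WT, 4 passed in Cpt2 KO (all higher, background 13.5%), 1 in Ppara KO (higher, background 6.42%) and 4 in DKO (2 higher and 2 lower, background 20.2%). No member interval passed for the interaction (3 had an unadjusted p under 0.05), where 1 interval of all, 0.00547%, passed in limma. With 17 intervals, these counts are near the background. With the smallest peak width of each library as a covariate, none of the 17 passed any of these contrasts in limma, which ends each call of theirs given below (unadjusted p was then under 0.05 for 2 intervals for Ppara loss and 1 for Cpt2 loss). The median log2 difference over them was 0.02 for Ppara loss and -0.05 for Cpt2 loss, and over all intervals it was -0.01 for each.

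For H3K4me1 no member interval of 26 passed any of the 6 contrasts in limma, where the share of all 19526 intervals was 0.128% for Ppara loss, 0.133% for DKO against WT and 0% for the other 4. Unadjusted p was under 0.05 in limma for 3 of the 26 for Ppara loss, 1 for Cpt2 loss, 0 for the interaction, and against WT for 1 with Cpt2 KO, 2 with Ppara KO and 4 with DKO. Without the library Cpt2 KO replicate 1, 2 of 30 passed for Ppara loss and 1 for DKO against WT.

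**Figure D1:**
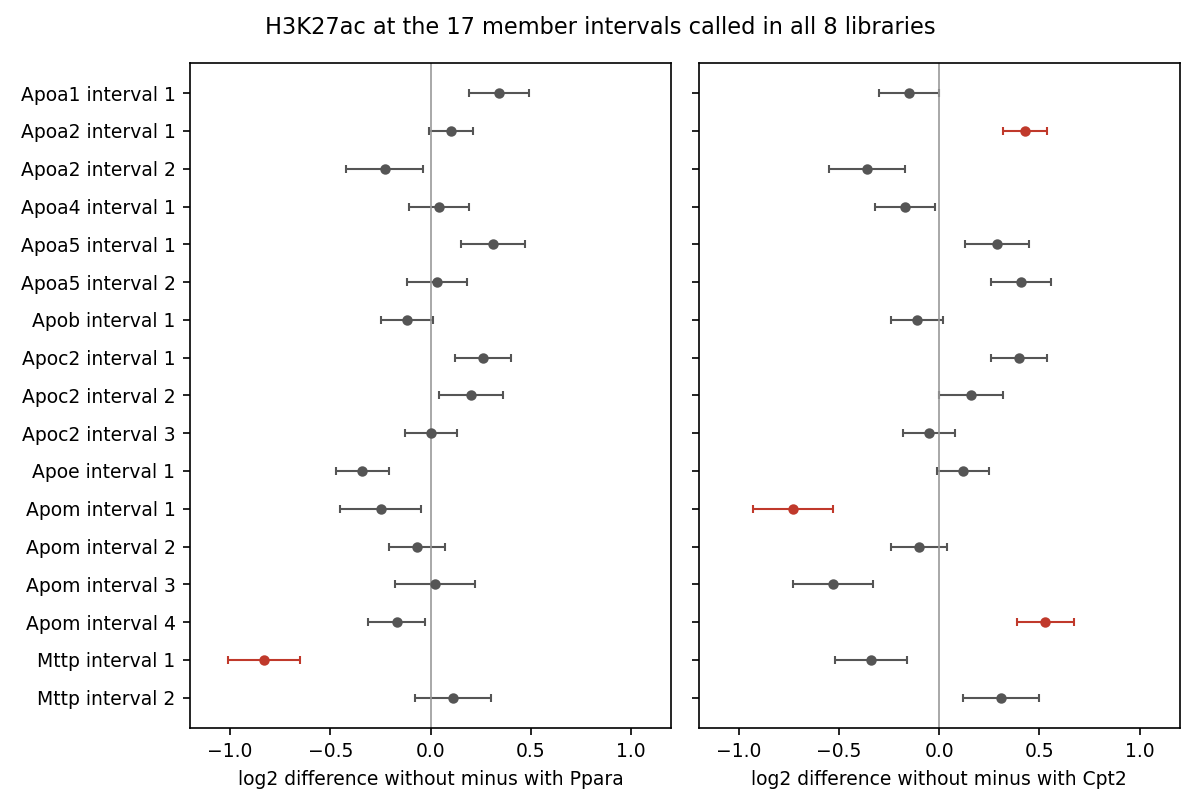
Log2 difference in H3K27ac fold (limma, centred; bars are standard errors, 8 libraries) for Ppara loss (left) and Cpt2 loss (right) at the 17 member intervals called in all 8 libraries. Intervals are numbered along the chromosome within the nearest member, and red marks adjusted p under 0.05: the first Mttp interval on the left, and the first Apoa2 and the first and last Apom intervals on the right.

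Apob, the structural protein of VLDL, varied little in H3K27ac. The range of its genotype means, 0.23 on the log2 scale, was the smallest of the members after that of Apoc2 (0.15). Its start lay in an interval at chromosome 12, 7976831 to 7981765, where folds were 21.7 and 20.9 for WT, 24.2 and 22.9 for Cpt2 KO, 20.2 and 19.3 for Ppara KO and 20.4 and 24.3 for DKO. All 8 libraries thus fell between 19.3 and 24.3. Ppara KO was lowest, WT next and Cpt2 KO above both without overlap, while DKO spanned WT and Cpt2 KO. The summit lay 121 to 147 bases past the listed start in every library. The log2 difference in limma was -0.12 ± 0.13 (SE) for Ppara loss (adjusted p = 0.625) and -0.11 ± 0.13 for Cpt2 loss (adjusted p = 0.623). The latter was 0.16 without centring, the sign of the printed folds, which are not centred. Of the 16 H3K4me1 intervals of Apob, 2 were called in all 8 libraries, both inside the gene body. The stronger of these, at 7982504 to 7985637, ranged from 5.77 to 8.10. No H3K4me1 peak lay over the start itself.

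H3K9ac at Apob differed between its WT library and its Cpt2 KO library beyond the start. Of 10 intervals, 2 were present in both and 8 in WT alone, and these 8 all lay inside the gene body between 7984997 and 7995719. Over all 10 members, 21 of 78 H3K9ac intervals (26.9%) were in WT alone, beside 20.8% of all 46568 intervals, and 4 (5.13%) were in Cpt2 KO alone, beside 23.9%. The remaining 53 were in both, among them 7 of 7 at Apoc3 and 12 of 15 at Apoa2. With 1 library per genotype there is no replicate check, and neighbouring intervals of 1 gene are not independent of each other.

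Mttp, the lipid transfer protein that loads Apob, held the only member interval that passed for Ppara loss. At its first interval, inside the gene body at chromosome 3, 138128495 to 138130053, H3K27ac folds were 7.75 and 10.7 for WT, 9.42 and 9.11 for Cpt2 KO, 5 and 6.28 for Ppara KO and 5.12 and 4.77 for DKO. The 4 libraries without Ppara all lay below the 4 with it. H3K27ac was lower without Ppara by -0.83 ± 0.18 on the log2 scale (SE; limma adjusted p = 0.0166), and lower in DKO than in WT by -1.18 (limma adjusted p = 0.00897). The former lost its call in limma without WT replicate 2, Cpt2 KO replicate 2, Ppara KO replicate 1 or DKO replicate 2 (adjusted p from 0.0507 to 0.0708, log2 differences from -0.81 to -0.76), and the latter without WT replicate 2 (0.0524) or DKO replicate 2 (0.0701).

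The second Mttp interval, at 138130226 to 138135055, went another way. Folds were 9.35 and 6.18 for WT, 20.5 and 15.6 for Cpt2 KO, 11.9 and 14.7 for Ppara KO and 11.8 and 13.2 for DKO, so both WT libraries lay below all 6 others. Cpt2 KO was above WT by a log2 difference of 1.01 (limma adjusted p = 0.0299). That difference missed the threshold in limma without WT replicate 2 (0.59, adjusted p = 0.195), Cpt2 KO replicate 1 (0.89, adjusted p = 0.201) or Cpt2 KO replicate 2 (1.14, adjusted p = 0.0747). With the smallest peak width as a covariate the difference was -0.05. The interaction was -1.41 and did not pass (limma adjusted p = 0.142), and neither did Ppara loss (0.11) or Cpt2 loss (0.31).

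The highest peak of the second Mttp interval was not at the same place in all libraries. Its summit lay 9884 to 9952 bases past the listed Mttp start in both WT libraries and Ppara KO replicate 1, and 12110 to 12184 bases past it in the other 5. In the WT libraries and Ppara KO replicate 1 a single peak spanned both places. RefSeq's table lists 1 start for Mttp, at 138143418, and the nearest H3K27ac interval was 8363 bases from it; other starts of this gene were not used here. Within the second interval, H3K4me1 at 138131635 to 138133614 was 11.3 and 11.6 for WT, 9.99 and 9.6 for Cpt2 KO, 7.90 and 4.83 for Ppara KO and 6.18 and 7.57 for DKO. Here too the 4 libraries without Ppara lay below the other 4, and the log2 difference of -0.71 did not pass (limma adjusted p = 0.156).

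**Figure D2:**
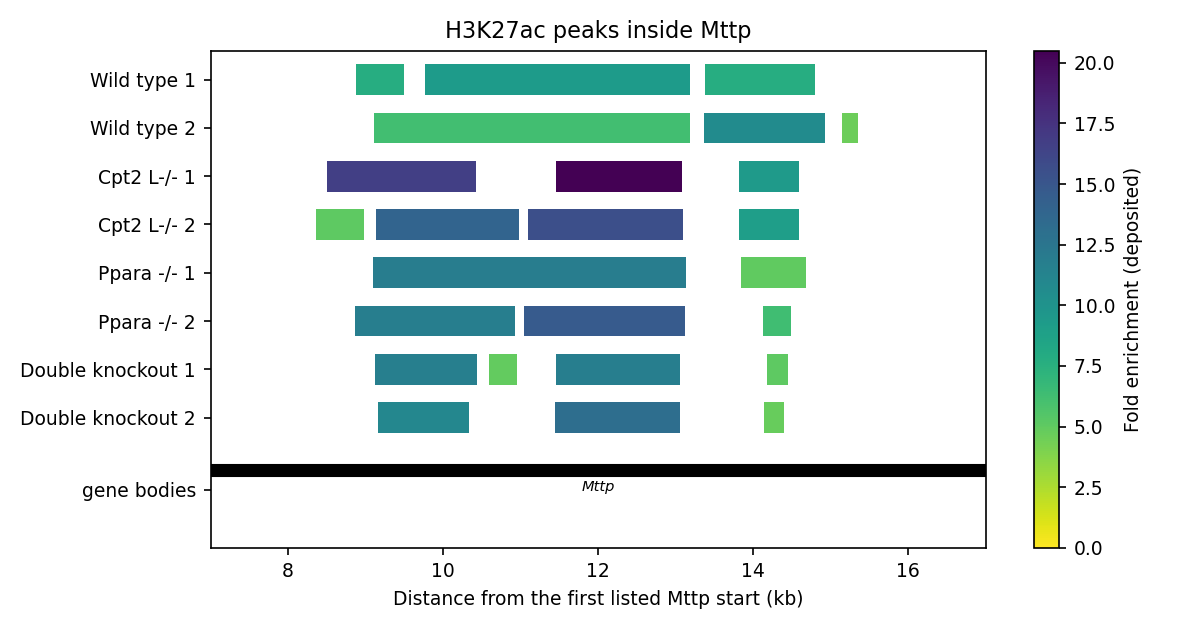
H3K27ac peaks inside Mttp in each library (rows), by distance from its listed start in kb (x axis, positive into the gene), coloured by the deposited fold. The peak near 14 kb is paler in the 4 lower rows (folds of 4.77 to 6.28) than in the 4 upper rows (7.75 to 10.7), and the single peak of the WT libraries is a pair of peaks in Cpt2 KO.

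Apoa2 had the widest range of genotype means (1.04 on the log2 scale) among the strongest H3K27ac intervals of the members. Its interval, at chromosome 1, 171211673 to 171228467, also covers Nr1i3, which encodes the xenobiotic receptor CAR, and Tomm40l, a mitochondrial import gene. Folds were 17.5 and 22.7 for WT, 47.9 and 47.9 for Cpt2 KO, 30.6 and 34.2 for Ppara KO and 36.1 and 34.4 for DKO, with both WT libraries below the 6 others. Cpt2 KO was above WT by 1.04 (limma adjusted p = 0.00411), Ppara KO by 0.71 (0.0225) and DKO by 0.53 (0.0322), and Cpt2 loss gave 0.43 ± 0.11 (SE; 0.0262). The interaction of -1.23 did not pass (limma adjusted p = 0.0774).

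The summit behind these values lay 173 to 733 bases from the listed Nr1i3 start in all 8 libraries, so they describe the Nr1i3 end of the interval. The Cpt2 KO difference held in limma without any single library. The call for Cpt2 loss was lost without either Cpt2 KO library, either Ppara KO library or DKO replicate 1 (adjusted p from 0.0681 to 0.0962), and that of Ppara KO was lost without WT replicate 2 (0.0626), either Ppara KO library (0.103 and 0.104) or centring (0.0624). That of DKO was lost without WT replicate 1 (0.0955), Cpt2 KO replicate 2 (0.0524), DKO replicate 1 (0.213) or DKO replicate 2 (0.0575), and in the fit that also took intervals called in 6 or 7 libraries (0.0607).

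At Apoa2 itself, values were read from the highest peak within 500 bases of each listed start, a measure added after the first values were seen. At the second start, 171225054, folds were 17.2 and 15.1 for WT, 29.6 and 23.8 for Cpt2 KO, 23.1 and 18.9 for Ppara KO and 18.0 and 21.4 for DKO. WT was again below all others, with log2 differences of 0.03 for Ppara loss and 0.07 for Cpt2 loss that did not pass in limma (adjusted p = 0.933 and 0.791). At the first start, 171221564, folds were 4.29 and 6.56 for WT, 6.77 and 7.55 for Cpt2 KO, 13.4 and 15.3 for Ppara KO and 5.64 and 4.58 for DKO. Both Ppara KO libraries stood above the other 6, but there the peak reached to a summit 2306 and 1806 bases past the start, while in the other 6 it lay within 733 bases. Near those places the other libraries, apart from Cpt2 KO replicate 1, held separate peaks, of 15.4 (WT replicate 1, summit at 1.82 kb), 13.4 (WT replicate 2, 1.86 kb) and 15.4 (Cpt2 KO replicate 2, 2.28 kb), and of 13.0 and 9.34 in DKO (2.29 kb in each), so the values at the first start do not compare the same place.

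Over the 12 member starts tested in this way, 0 passed for Ppara loss (6 had an unadjusted p under 0.05), beside 2.47% of 8329 starts, and 1 passed for Cpt2 loss, beside 8.97%. That was the first Apoa2 start, which differed by -0.77 ± 0.16 on the log2 scale (SE; limma adjusted p = 0.0262), which counts the pair of Ppara KO libraries, with their distant summits, on the side with Cpt2. Its count of 1 fell to 0 without WT replicate 2, either Cpt2 KO library, either Ppara KO library or DKO replicate 2, and was 3 without WT replicate 1. Starts that share a peak (3 of Apoe, and both of Apoa5) gave the same value.

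**Figure D3:**
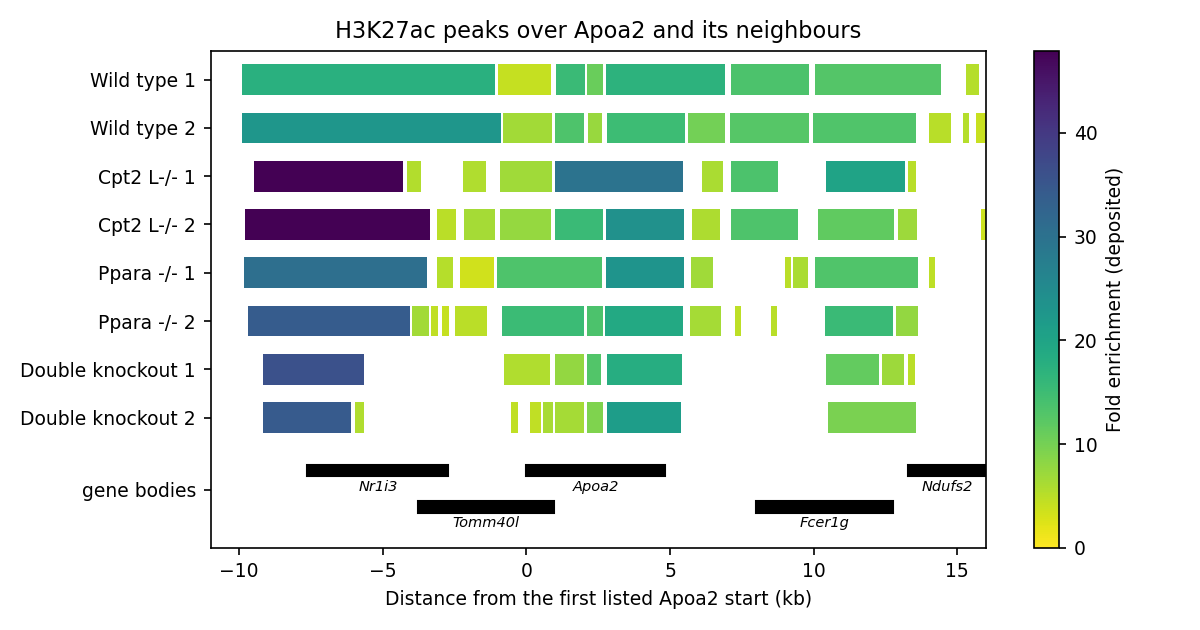
H3K27ac peaks over Apoa2 and its neighbours in each library (rows), by distance from the first listed Apoa2 start in kb (x axis), coloured by the deposited fold, with gene bodies below. The darkest peaks lie over the Nr1i3 start (47.9 in both Cpt2 KO libraries), and the peaks between 7 and 10 kb are missing from both DKO rows.

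On the side of Apoa2 towards Fcer1g, whose product is a chain of Fc receptors of myeloid cells, an interval lacked H3K27ac calls in DKO. It was named after its values were seen, and the share of all intervals with this pattern was not counted. It ran from 171228652 to 171231407, with its midpoint 3650 bases beyond Apoa2 and inside the body of Fcer1g. Folds there were 13.5 and 12.7 for WT, 13.6 and 13.3 for Cpt2 KO and 6 and 5.21 for Ppara KO. Neither DKO library had a peak. Ppara KO thus lay below WT and Cpt2 KO, and no test is given, since a value for DKO would have to be filled in. H3K4me1 over the same bases was 12.9 and 10.2 for WT, 8.74 and 10.7 for Cpt2 KO and 7.24 for Ppara KO replicate 1, with no call in the other 3 libraries. Of 4 H3K9ac intervals there, the pair farther from Apoa2, between 171230193 and 171231369, lay inside Fcer1g and was in the WT library alone. The pair nearer Apoa2 was in both libraries. The next interval, over the Fcer1g start at 171231559 to 171236341, was called in all 8 libraries (9.56 to 20.1). The summed folds of macrophage markers given above were highest in DKO, and their part in this result was not tested.

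Among 11251 genes compared, those whose strongest H3K27ac interval was most like that of Apoa2 over the 8 libraries included Gm44812 (Pearson r = 0.958), Lgals1 and Nol12 (which share an interval, r = 0.953) and Ppm1f (0.945). At Gm44812, folds were 5.41 and 6.72 for WT, 23.2 and 20.6 for Cpt2 KO, 11.3 and 13.2 for Ppara KO and 13.6 and 16.4 for DKO. WT was lowest and Cpt2 KO highest, as at the Apoa2 interval, an order that follows from how the gene was chosen. These r values rank genes on 8 shared libraries and were not tested.

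Apoa1, the main protein of high-density lipoprotein, Apoc3, an inhibitor of triglyceride lipolysis, and Apoa4, an apolipoprotein of intestinal and hepatic particles, lie side by side on chromosome 9 and shared their H3K27ac. At 46213231 to 46233397, over the Apoa1 start, folds were 16.9 and 15.0 for WT, 15.5 and 16.5 for Cpt2 KO, 18.7 and 19.4 for Ppara KO and 21.9 and 22.6 for DKO. In WT replicate 1 the value came from a separate peak with its summit 4370 bases from the start, and the peak over the start was 12.9. The 4 libraries without Ppara lay above the 4 with it, with a log2 difference of 0.34 ± 0.15 (SE) that did not pass (limma adjusted p = 0.19). In the window around the Apoa1 start it was 0.53 ± 0.12 (limma adjusted p = 0.052). At 46233481 to 46245270, over the Apoa4 start and most of Apoc3, folds ran from 16.2 to 23.7 and neither contrast passed (0.04 for Ppara loss and -0.17 for Cpt2 loss). The summit lay inside the Apoc3 body in WT, Ppara KO and Cpt2 KO replicate 1. In Cpt2 KO replicate 2 and DKO it lay 399 to 700 bases from the Apoa4 start, so here too the values compare different places. H3K4me1 before the Apoa1 start, at 46218704 to 46228649, was the highest of the members (10.9 to 18.7) and did not pass either (-0.13 and -0.28).

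The Apoa1 region differed more in the length of its H3K27ac peaks than in their height. The peak over the Apoa1 start was 18081 and 17980 bases long in WT and 12603 and 12544 in Ppara KO, but 4839 and 4864 in Cpt2 KO and 4885 and 10932 in DKO. Over the gene and 10 kb either side, peaks covered 21.3 and 21.1 kb in WT, 21.4 and 21.4 kb in Ppara KO, 15.5 and 16.3 kb in Cpt2 KO and 17.6 and 16.9 kb in DKO. All 4 libraries without Cpt2 lay below all 4 with it at 6 of the 10 members (Apoa1, Apoa5, Apoc2, Apoc3, Apoe and Apom), beside 13.1% of 11571 genes with a peak in every library. No member had all 4 libraries without Ppara below the other 4, beside 6.08%. Windows of neighbouring members overlap, so these are not 6 independent cases, and the covered bases of whole lists, given above, were also lower without Cpt2.

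**Figure D4:**
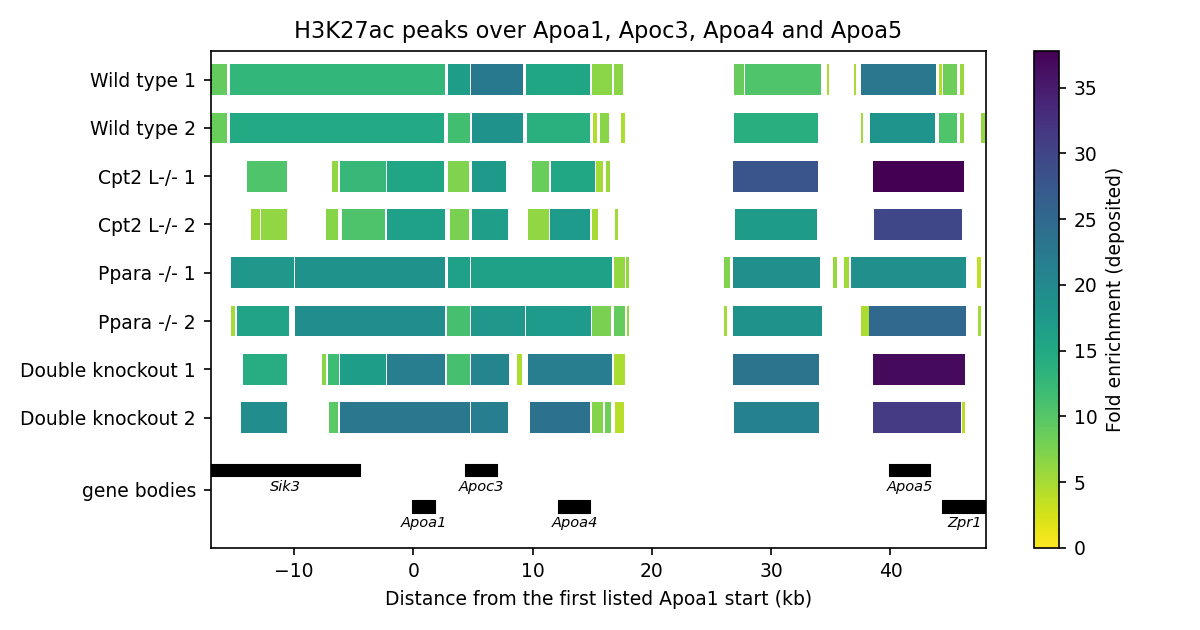
H3K27ac peaks from the end of Sik3 to Zpr1 in each library (rows), by distance from the Apoa1 start in kb (x axis), coloured by the deposited fold, with gene bodies below. The WT rows hold 1 peak of 18.1 and 18.0 kb across the Apoa1 start, which is split in all other rows, those of Ppara KO included. The piece over the start is shortest in Cpt2 KO and DKO replicate 1, and the peak over Apoa5 is darkest in the Cpt2 KO and DKO rows.

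Apoa5, an activator of triglyceride lipolysis made in the liver, had higher H3K27ac values in the libraries without Cpt2. Over its start, at chromosome 9, 46265329 to 46274954, an interval that also covers the Zpr1 start, folds were 22.7 and 18.2 for WT, 37.8 and 29.7 for Cpt2 KO, 19.0 and 25.2 for Ppara KO and 36.8 and 31.2 for DKO. The 4 libraries without Cpt2 lay above the 4 with it, yet the log2 difference of 0.41 ± 0.15 (SE) did not pass (limma adjusted p = 0.0899). Of 16 alternatives it passed in 3, which were no centring, centring on whole peak lists and leaving out WT replicate 1. Over the 16 alternatives the log2 difference ran from 0.03 to 0.67. Farther upstream, at 46255388 to 46262855, folds were 10.4 and 14.0 in WT and 17.1 to 27.8 elsewhere, with log2 differences of 0.31 for Ppara loss and 0.29 for Cpt2 loss that did not pass.

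Most H3K27ac intervals around Apoa5 were not shared by all libraries. Of 10 H3K27ac intervals at Apoa5, 2 were called in all 8 libraries and 5 in a single library. Over all members, 13 of 40 H3K27ac intervals (32.5%) were called in 1 library, beside 27.2% of all.

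Apoc2, the cofactor of lipoprotein lipase, and Apoe, the ligand for uptake of remnant particles, lie in a cluster on chromosome 7. The strongest Apoc2 interval, at 19674620 to 19693509, covers the Apoc2 and Apoc4 starts, with folds of 20.2 and 23.6 for WT, 26.7 and 25.9 for Cpt2 KO, 24.9 and 21.6 for Ppara KO and 24.6 and 27.2 for DKO. Its log2 differences were 0.00 for Ppara loss and -0.05 for Cpt2 loss. The interval also overlaps the body of Apoc1, for which no start was listed inside it. Among the listed starts, the summit behind these values lay nearest that of Apoe in 5 libraries (5924 to 6584 bases from it). It lay nearest that of Gm44805 in 2 and nearest that of Apoc2 in Ppara KO replicate 1, so the values compare different places. Within 500 bases of the Apoc2 start the highest peaks were 19.8 and 22.8 for WT, 25.6 and 25.5 for Cpt2 KO, 24.9 and 15.9 for Ppara KO and 20.6 and 27.2 for DKO, with differences of -0.04 and 0.02 that did not pass (limma adjusted p = 0.923 and 0.949). H3K4me1 at 19681510 to 19683660 ran from 10.0 to 14.1.

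At the downstream end of Apoc2, H3K27ac at 19671174 to 19672013 had a peak in each of the 4 libraries with Cpt2 (9.43 and 9.40 in WT, 7.79 and 6.19 in Ppara KO) and in none without it. It was the only H3K27ac member interval called in every library of one Cpt2 state and none of the other, beside 2.78% of all intervals, and 0 of 40 split so by Ppara state, beside 1.36%. No H3K4me1 member interval split by Ppara (background 0.989%) or Cpt2 (0.283%), and H3K4me1 at 19671465 to 19671965 was called in all 8 libraries, from 5.16 to 8.43. An interval named after its values were seen, at 19664366 to 19666352 over the start of Clptm1, was higher than WT (10.2 and 11.9) in Cpt2 KO (24.2 and 19.1) and in DKO (21.0 and 22.1), by 0.74 (limma adjusted p = 0.0297) and 0.67 (0.033). Both Ppara KO libraries (15.3 and 18.0) lay above WT too, by 0.60, which did not pass (limma adjusted p = 0.0862). Cpt2 loss did not pass there either (0.40, limma adjusted p = 0.0761). The call in Cpt2 KO was lost without any 1 of the 4 WT and Cpt2 KO libraries (adjusted p from 0.051 to 0.221), and that in DKO without either WT or DKO library or Cpt2 KO replicate 2 (0.0502 to 0.151).

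The Apoe interval, at 19693658 to 19705052, was lowest in Ppara KO. Folds were 21.5 and 28.0 for WT, 26.2 and 25.5 for Cpt2 KO, 17 and 14.9 for Ppara KO and 23.1 and 29.0 for DKO. Both Ppara KO libraries lay below the 6 others, but DKO did not, and the log2 difference for Ppara loss was -0.34 (limma adjusted p = 0.139). Ppara KO against WT gave -0.61 (limma adjusted p = 0.0663), and -0.68 (0.0406), past the threshold, in the fit that also took intervals called in 6 or 7 libraries. The highest summit lay 1699 and 1717 bases from the nearest listed Apoe start in WT, 4094 and 1480 in Ppara KO, and 123 to 231 in the other 4 libraries. H3K4me1 at 19699179 to 19704768, an interval whose edge reaches the most upstream Apoe start, ran from 7.31 to 12.3, with differences of -0.30 and -0.04. Its highest summits lay 1463 to 2595 bases from that start, and a peak lay over the start itself in 1 library.

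**Figure D5:**
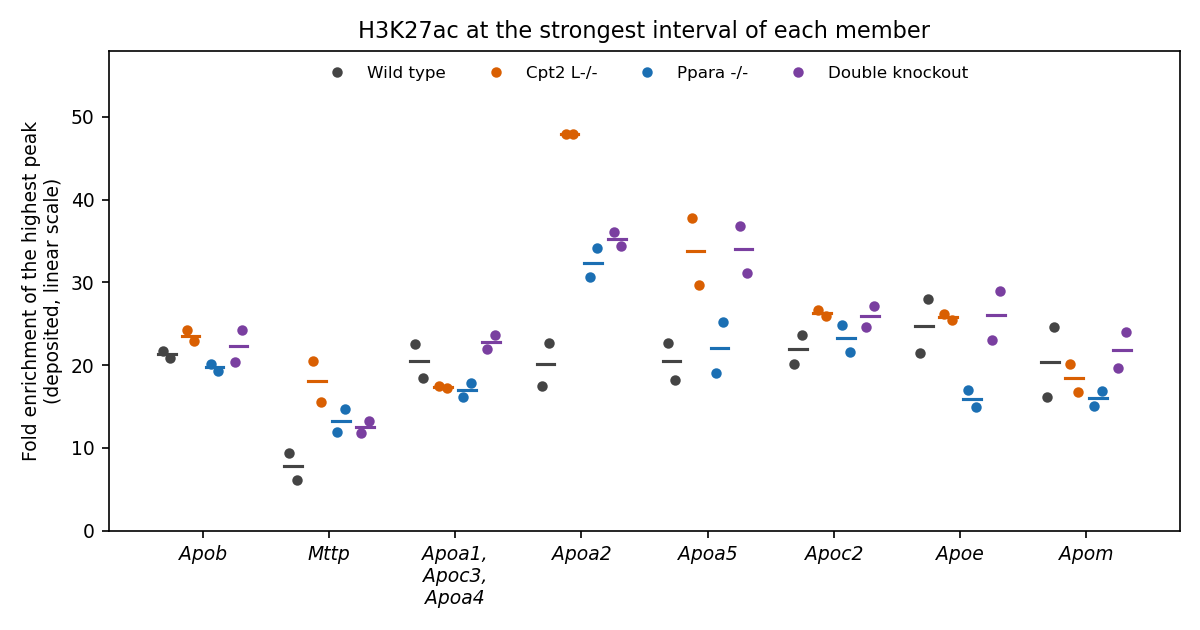
Deposited H3K27ac fold (y axis, linear) at the strongest interval of each member, with 1 point per library and a bar at the mean of the 2 libraries of a genotype. Apoa1, Apoc3 and Apoa4 share 1 interval. All points at Apob lie between 19.3 and 24.3, while both WT points lie lowest at Mttp and Apoa2 and both Ppara KO points lie lowest at Apoe.

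Apom, which carries sphingosine-1-phosphate in lipoproteins, was a weak member in a gene-dense stretch of chromosome 17. Over its own start, at 35130532 to 35132600, H3K27ac was 4.50 and 8.07 for WT, 6.61 and 5 for Cpt2 KO, 6.38 and 8.08 for Ppara KO and 4.79 and 5.62 for DKO, with the WT libraries far apart and a log2 difference of -0.53 for Cpt2 loss that did not pass (limma adjusted p = 0.0935). Its strongest interval, at 35124499 to 35128186 over the start of D17H6S53E, ran from 15.1 to 24.6 and did not pass (-0.07 and -0.10).

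Both intervals near Apom that passed for Cpt2 loss lay over starts of other genes. At 35134441 to 35136419, over the start of Bag6, a chaperone gene, folds were 12.5 and 14.8 for WT, 28.1 and 24.7 for Cpt2 KO, 12.7 and 14.8 for Ppara KO and 21.5 and 21.3 for DKO, which differed by 0.53 ± 0.14 on the log2 scale (SE; limma adjusted p = 0.0256) with no overlap between Cpt2 states. Cpt2 KO against WT gave 0.73 (limma adjusted p = 0.0272). At 35120427 to 35122395, over the start of Csnk2b, a casein kinase subunit gene, they were 16.6 and 22.4 for WT, 12 and 20.8 for Cpt2 KO, 19.4 and 18.0 for Ppara KO and 10.4 and 13.9 for DKO, a difference of -0.73 ± 0.20 (limma adjusted p = 0.0305) with overlapping states, and DKO against WT gave -0.98 (limma adjusted p = 0.0262).

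These Apom calls were lost in limma when single libraries were left out. For Bag6, Cpt2 loss missed the threshold without either Cpt2 KO or Ppara KO library or DKO replicate 1 (adjusted p from 0.0633 to 0.0951), and Cpt2 KO against WT without any 1 of its 4 libraries (0.0508 to 0.175). For Csnk2b, Cpt2 loss missed it without WT replicate 2, Cpt2 KO replicate 1 or any 1 Ppara KO or DKO library (0.055 to 0.127), and DKO against WT without WT replicate 2 or either DKO library (0.0694 to 0.125). Both Csnk2b calls were also lost without centring (0.115 and 0.101). H3K4me1 at Apom differed between libraries of 1 genotype, with peaks over 1.4 kb of the gene and 10 kb either side in Cpt2 KO replicate 1 and over 9.8 kb in replicate 2. The 4 libraries with the least covered sequence there (1.4 to 3.8 kb, beside 7.7 to 9.8 kb) also had the least in their whole H3K4me1 lists, whose part was not tested.

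Other genes of the pathway were read at their strongest H3K27ac interval. With lists this small, their counts of calls are near the shares of all intervals given beside them. Among 12 partners of VLDL assembly and secretion, 11 were tested. None passed for Cpt2 loss, beside 12.3% of all intervals, and 1 passed for Ppara loss, beside 7.34%. It was Fitm2, which helps lipid droplets form, at chromosome 2, 163470705 to 163472990, with folds of 15.3 and 22.4 for WT, 26.1 and 25.1 for Cpt2 KO, 8.53 and 8.89 for Ppara KO and 10.4 and 11.2 for DKO. The 4 libraries without Ppara lay below the other 4, by -1.2 ± 0.16 on the log2 scale (SE; limma adjusted p = 0.00084), and this difference passed in all 16 alternatives.

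Among 6 other apolipoproteins, none passed for Ppara loss, beside 7.34% of all intervals, and 1 passed for Cpt2 loss, beside 12.3%. This was Apod, which binds small lipids. Its interval, at chromosome 16, 31290185 to 31291538, had folds of 5.20 and 4.14 for WT, 14.4 and 12.8 for Cpt2 KO, 10.3 and 6.75 for Ppara KO and 11 and 13.1 for DKO, a difference of 0.77 ± 0.21 (SE; limma adjusted p = 0.0322). Cpt2 states did not overlap, and the call was lost without WT replicate 2, Ppara KO replicate 2 or any 1 Cpt2 KO or DKO library.

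Of 15 genes of lipoprotein remodelling and uptake, 12 were tested, and none passed for Ppara loss, beside 7.34% of all intervals. For Cpt2 loss 2 were lower, beside 12.3% of all intervals past the threshold in either direction, and 1 of these genes is described here. Scarb1, the receptor that takes cholesterol ester from high-density lipoprotein, had folds of 19.1 and 26.5 for WT, 13.8 and 14.2 for Cpt2 KO, 21.3 and 22.3 for Ppara KO and 12.2 and 23.0 for DKO, a difference of -0.80 ± 0.17 (SE; limma adjusted p = 0.0132). DKO replicate 2 was as high as the libraries with Cpt2. Abca1, which exports cholesterol to Apoa1 and is named after its values were seen, passed against WT in each mutant, with folds of 26.0 and 41.4 for WT, 16.4 and 13.9 for Cpt2 KO, 12.5 and 11.5 for Ppara KO and 17.2 and 24.7 for DKO, and log2 differences of -1.34, -1.44 and -0.97 (limma adjusted p = 0.00529, 0.00713 and 0.0105). Without WT replicate 2 the calls in Ppara KO and DKO were lost, and that in DKO was lost without DKO replicate 1 too.

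Of 8 transcription factors known to act on these genes, none passed for Ppara loss, beside 7.34% of all intervals. For Cpt2 loss 2 were lower, beside 12.3% of all intervals past the threshold in either direction, and 1 of these factors is described here. Rora, a nuclear receptor of the circadian clock, had folds of 33.2 and 36.2 for WT, 11.7 and 18.8 for Cpt2 KO, 19.3 and 21.2 for Ppara KO and 19.7 and 21.5 for DKO, a difference of -0.87 ± 0.17 (SE; limma adjusted p = 0.0089). WT stood above all 6 others. Of the calls named for Fitm2, Apod, Scarb1, Abca1 and Rora, that of Fitm2 for Ppara loss alone held with smallest peak width as a covariate, and those of Scarb1 for Cpt2 loss and of Abca1 in DKO were also lost without centring. No gene of the 4 lists passed in H3K4me1 for either loss.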

How the data were processed

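ChIP-seq peaks of H3K27ac and H3K4me1 (8 libraries each) and H3K9ac intervals (2 libraries) were used. Reads were aligned with BWA and peaks called with MACS2 2.1.0 on mm10, per the submitters' processing notes. Each peak's fold is a ratio over input, deposited by the authors per library, beside its −log10 q, also deposited by the authors. In 1 H3K27ac library (Ppara KO replicate 2) the peak names spell the build otherwise, and its coordinates were taken as mm10. Peak positions, deposited in bases counted from 0, were converted to count from 1. Consensus intervals carry no values, per the file headers. Depth in reads is unknown, so no counting interval is given, and 2 libraries per genotype limit the precision.

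An interval took the highest fold of any peak overlapping it by 1 base or more. For intervals called in all 8 libraries, limma 3.58.1 (R 4.3.3) fitted 4 genotype means with 4 residual degrees of freedom and a trended prior, and the code was tested on simulated data. Gene bodies and starts came from RefSeq tables of GRCm38.p6, which give no exons, so intervals are placed in or near gene bodies only. The strongest interval of a gene was the one with the highest mean log2 fold among those called in all 8 libraries. All members, their strongest intervals, those past the threshold for Ppara loss, Cpt2 loss or the interaction, those called by state, pathway genes past the threshold and the 5 genes most like Apoa2 were named by rule. Some genes that this rule names are not reported here. Members and lists were chosen with earlier results of these data known. Endothelial, macrophage, stellate, bile duct, lymphocyte and intestinal marker lists were read too, and an uncalled marker added 0 to a sum. Summed H3K27ac folds of stellate markers were 14.3 to 14.8 in WT, 28.5 to 36.9 in Cpt2 KO, 6.07 to 7.14 in Ppara KO and 19.2 to 26.4 in DKO, those of bile duct markers 12.5 to 19.7, 0, 5.81 to 7.25 and 6.50 to 9.57, those of lymphocyte markers 17.8 to 21.4, 37.4 to 40.4, 24.1 to 27.5 and 35.4 to 35.9, and those of intestinal markers 42.2 to 50.6, 39.2 to 55.3, 33.2 to 39.4 and 31.3 to 35.8. Alternatives changed the centring, normalization, peak threshold, overlap, handling of uncalled libraries, a covariate of smallest peak width, a replicate block and the libraries used. Input libraries were not analysed here on their own.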

Additional observations from a re-analysis of the deposited data

How the results depend on the processing

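Counts of H3K27ac member intervals past the threshold (1 for Ppara loss, 3 for Cpt2 loss, and 4, 1 and 4 for Cpt2 KO, Ppara KO and DKO against WT) rested on few libraries. With the smallest peak width as a covariate, which moved with the Cpt2 state, all 5 became 0, the Cpt2 KO difference at the second Mttp interval was -0.05, and 0 of all intervals passed for Cpt2 loss. Without centring, 5 passed for Cpt2 loss (all higher, where 2 were higher and 1 lower with it) and 0 in Ppara KO. A minimum −log10 q of 10 gave 0 for Ppara loss, where the Mttp interval was no longer called in all libraries. Filling uncalled libraries gave 2 for Ppara loss and 3 in Ppara KO, 1 of each being the interval over part of Fcer1g, whose DKO values were filled in. Leaving out 1 library gave 0 to 1 for Ppara loss, 0 to 5 for Cpt2 loss, 1 to 4 in Cpt2 KO, 0 to 2 in Ppara KO and 0 to 4 in DKO, where the lone library of a genotype is assumed to vary like the others. For H3K4me1, without Cpt2 KO replicate 1 counts rose from 0 to 2 for Ppara loss and to 1 in DKO, so they ranged from 0 to 2 and from 0 to 1. Around listed starts, leaving out 1 library gave 0 to 1 for Ppara loss and 0 to 3 for Cpt2 loss. There quantile normalization gave 1 for Ppara loss, no centring gave 2 and the width covariate 0 for Cpt2 loss. The count of members with less covered sequence without Ppara ran from 0 to 2 with 1 library left out, and that without Cpt2 from 6 to 8. Centring moved the split of all H3K27ac intervals past the threshold for Cpt2 loss: 896 were higher and 1349 lower here, 1327 and 912 with centring on whole peak lists (chosen after seeing the data) and 3504 and 432 without centring, which moved the median of all intervals to 0.25 on the log2 scale. With a replicate block the counts of member intervals for H3K27ac stayed at 1 for Ppara loss and 3 for Cpt2 loss. Over all H3K4me1 intervals the count for Ppara loss went from 25 to 0 (7 with quantile normalization, 0 with the width covariate). Correlations of same-numbered deviations ran from -0.0649 to 0.172 for H3K27ac and from -0.489 to 0.101 for H3K4me1. With 2 libraries per genotype, they cannot show whether libraries that share a number were handled together. The cause of each change was not tested. With midpoints within 2 kb of the gene in place of 10 kb, members had 0 to 4 H3K27ac intervals (2 to 10 here) and 1 to 15 of H3K4me1 (4 to 16 here). Depth in reads is unknown, so a peak without a call may lie just under the caller's threshold.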
